A study of Mus musculus with 4 samples.

Results

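The 10 genes described here, Des, Tnnt2, Actc1, Myl7, Myl4, Nppa, Ryr2, Smpx, Tnnc1 and Tnni1, encode proteins of the cardiac and striated sarcomere or of the muscle cell around it. They were picked by symbol from the 32285 genes of the count tables, and all 10 were found. The choice used measured levels in mutant and control cells of these libraries, so the differences between mutant Wt1-positive and control cells are given as a description, with no test. Lung cells of E16.5 mouse embryos (embryonic day) were read cell by cell in droplets, counting transcripts at their 3' ends, in 2 libraries of Myrf mutants and 2 libraries of Cre controls. Mutants came from matings of Myrf Fl/Fl mice with R26TdTomato on both chromosomes to mice with Wt1creERT2 and Myrf Fl/Fl. The labels call the other embryos Cre controls and name no Myrf allele for them. Embryos of both groups were exposed to tamoxifen at E12.5, which turns on the Cre, and cells with tdTomato and without DAPI were sorted from lungs pooled over 3 to 5 embryos of a genotype. Cre was driven by Wt1, so the sort takes cells with a history of Wt1-driven recombination together with their descendants. Whether each library had its own pool of embryos is not stated in the labels, so a p-value here measures a difference relative to the spread of these libraries, which may be technical.

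Striated muscle contracts through sarcomeres, in which myosin of the thick filament pulls on actin of the thin filament. Calcium frees the thin filament for this by binding to troponin C, which acts through troponin I and troponin T, and the calcium comes from internal stores through ryanodine receptors. Desmin filaments tie sarcomeres to each other and to the membrane, and are also found in smooth muscle. Mesothelium is the epithelial layer that covers the lung and other organs, and in the mouse embryo it also gives rise to smooth muscle cells and fibroblasts.

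Promoter windows of 4 members are shown because the comparisons of normal mesothelium and mutant cells turn on these genes. They run from 250 bases before to 50 bases after a start site (RefSeq, GRCm38.p6), 5' to 3' on the gene's strand, and capitals mark a CArG box, the site bound by serum response factor. The Des window is chr1:75360042-75360341 on the plus strand, and the window of the Tnnt2 start site listed first is chr1:135836084-135836383 on the plus strand. The Actc1 window is chr2:114052826-114053125 and the Myl7 window is chr11:5898733-5899032, both on the minus strand.
Des: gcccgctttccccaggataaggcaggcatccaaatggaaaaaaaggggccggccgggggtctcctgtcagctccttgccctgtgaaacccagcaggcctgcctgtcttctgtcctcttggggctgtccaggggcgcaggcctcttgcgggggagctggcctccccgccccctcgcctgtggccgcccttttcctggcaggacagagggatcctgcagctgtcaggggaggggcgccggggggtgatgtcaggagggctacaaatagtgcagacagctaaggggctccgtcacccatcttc
Tnnt2: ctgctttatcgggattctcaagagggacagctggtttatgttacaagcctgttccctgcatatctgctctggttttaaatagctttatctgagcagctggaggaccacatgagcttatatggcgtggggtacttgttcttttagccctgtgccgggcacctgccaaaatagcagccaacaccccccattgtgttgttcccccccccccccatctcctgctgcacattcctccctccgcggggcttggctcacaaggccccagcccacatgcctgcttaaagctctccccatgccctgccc
Actc1: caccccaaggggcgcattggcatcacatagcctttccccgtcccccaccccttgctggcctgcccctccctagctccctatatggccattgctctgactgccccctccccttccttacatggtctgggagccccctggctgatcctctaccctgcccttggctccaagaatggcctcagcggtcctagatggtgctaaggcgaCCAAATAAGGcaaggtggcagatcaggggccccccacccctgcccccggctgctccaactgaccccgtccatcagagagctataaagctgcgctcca
Myl7: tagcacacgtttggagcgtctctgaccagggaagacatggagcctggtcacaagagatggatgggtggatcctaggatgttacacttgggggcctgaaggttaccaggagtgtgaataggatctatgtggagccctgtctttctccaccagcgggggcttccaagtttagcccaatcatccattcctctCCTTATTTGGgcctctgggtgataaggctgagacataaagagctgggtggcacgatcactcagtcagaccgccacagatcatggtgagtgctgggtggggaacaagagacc
All 10 members matched a RefSeq promoter, in 12 windows, since Tnnt2 and Tnni1 have 2 start sites each. A CArG box lay in 2 of the 12 windows (16.7%), 47 bases before the Actc1 start and 61 bases before the Myl7 start, and in 535 of all 32851 promoter windows (1.63%). No window of a member held a MEF2 site, against 3.19% of all promoters. The TEAD motif CATTCC was in 25% of member windows, those of Tnnt2, Myl7 and Tnnc1, and in 14.7% of all. The GATA motif AGATAA was in 16.7% against 11.2%, the E-box CANNTG in 83.3% against 72.3%, and the Myrf motif CTGGNAC in 8.33%, the Ryr2 window alone, against 19.3%. Both strands were read, and the motifs were counted independently of any overlap. These matches are descriptions of letters in 12 windows and mark no bound site.

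Cells were put into classes by genes that are no members, in unique molecular identifiers (UMIs) per 10000 of the cell. Mesothelial cells had at least 10 Upk3b and under 2 Sftpc. There were 1 and 6 such cells in mutant libraries 1 and 2, and 103 and 568 in control libraries 1 and 2. The label calls all sorted cells mesothelial, but mesothelial cells made up 0.243 and 0.14% of kept mutant cells and 36.7 and 16.2% of kept control cells. The mutant cells set against them were therefore those with at least 1 UMI of Wt1, 178 and 669 cells in mutant libraries, and the same gate held 126 and 953 cells in control libraries. A sum of 14 mesothelial markers stood at 751 and 583 CPM, counts per 1000000 UMIs of the class, in Wt1-positive mutant cells, against 6325 and 5777 CPM in control mesothelial cells. Smooth muscle cells (Myh11 at least 2, Upk3b under 2) numbered 55 and 404 in mutants and 26 and 130 in controls, and fibroblasts (Tcf21 plus Pdgfra at least 2, Myh11 and Upk3b under 2) numbered 44 and 957 in mutants and 51 and 199 in controls, both without UMIs of Wt1, Rspo1 or Fgf9. Libraries held 411 and 4275 kept mutant cells and 281 and 3503 kept control cells, with 20884697 and 80666128 mutant UMIs and 8175944 and 57965000 control UMIs. Mutant Wt1-positive cells were deeper than control mesothelial cells, with a median of 52006 and 20168 UMIs against 34538 and 19430 UMIs. Wt1-positive control cells had a median of 33942 and 20689 UMIs. Levels are CPM of the UMIs summed over the cells of a class in a library, and each gene is compared between classes, not with other genes. Of the Wt1-positive cells, 1 and 5 in mutants and 98 and 481 in controls also passed the mesothelial gate, so the control classes share cells. Myrf itself stood at 19.1 and 7.20 CPM over all kept mutant cells, against 76.0 and 48.6 CPM over all kept control cells, and at 25.2 and 15.1 CPM in mutant Wt1-positive cells, against 139.2 and 101.7 CPM in control mesothelial cells. The labels do not give the deleted exons, so a 3' count need not report the deletion.

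The first question was which of these genes are already on in normal lung mesothelium. Control mesothelial cells expressed Tnnt2, Myl7, Ryr2 and Tnni1 at levels above those of fibroblasts from the same libraries, and Des and Smpx at levels below them. Of the 10 members, 7 passed the filter on low counts in this comparison, of which 4 were higher and 3 lower, in a contrast where 29.6% of all genes tested were higher and 24.2% lower. Apart from Des, these members had few UMIs in the class where they were lower and passed the filter through the other. Nothing is therefore read from the count of calls. The members were also chosen with levels in cells of these libraries known, so the p-values below are a description of the gaps. The test was edgeR's quasi-likelihood test with the library as a block, 2 libraries and both classes from each, adjusted by Benjamini-Hochberg over 12345 genes.

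Tnnt2 (ENSMUSG00000026414, mm10 chromosome 1, 135836354 to 135852260) encodes the cardiac form of troponin T, which anchors the troponin complex on the thin filament. It stood at 154.7 and 156.0 CPM in control mesothelial cells, against 0 and 2.85 CPM in control fibroblasts, a log2 difference of 6.25 ± 0.26 (SE; edgeR adjusted p = 3.72e-13). Myl7 (ENSMUSG00000020469, chromosome 11, 5896637 to 5898782) encodes the atrial regulatory light chain of myosin. It stood at 104.6 and 124.7 CPM in control mesothelial cells, against 1.23 and 1.54 CPM in control fibroblasts, a log2 difference of 6.37 ± 0.24 (edgeR adjusted p = 7.21e-14). For both genes the mesothelial values lay close together and far from those of fibroblasts. Both were also low in control smooth muscle cells, with 16.3 and 45.8 CPM of Tnnt2 and 1.48 and 1.43 CPM of Myl7. After each cell was thinned to 5000 UMIs, Tnnt2 was detected in 34.3 and 38.3% of control mesothelial cells and Myl7 in 25.5 and 29.2%. In endothelial cells of the same libraries, 8 and 11 cells that should lack both, Tnnt2 was detected in 0 and 9.09% and Myl7 in 0 and 0%. Unthinned, the mesothelial shares were 60.2 and 63.2% for Tnnt2 and 45.6 and 44.5% for Myl7, at the median depths given above, and the endothelial cells had a median of 14947 and 14106 UMIs.

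Ryr2 (ENSMUSG00000021313, chromosome 13, 11553102 to 12106945), the ryanodine receptor of heart muscle, was also on. It stood at 16.62 and 12.02 CPM in control mesothelial cells, against 1.23 and 1.75 CPM in control fibroblasts (log2 difference 3.06 ± 0.40, edgeR adjusted p = 3.4e-06). Tnni1 (ENSMUSG00000026418, chromosome 1, 135779434 to 135810989), the slow skeletal troponin I that is also the embryonic form of the heart, stood at 8.17 and 12.2 CPM in control mesothelial cells, against 2.47 and 0.88 CPM in control fibroblasts (log2 difference 3.06 ± 0.49, edgeR adjusted p = 3.21e-05). Both mesothelial values of each gene exceeded both fibroblast values. At 5000 UMIs per cell, a Ryr2 transcript was seen in 7.84 and 5.98% of control mesothelial cells and a Tnni1 transcript in 3.92 and 5.98%, against 0 and 0% of control endothelial cells for both genes.

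Smpx (ENSMUSG00000041476, chromosome X, 157698910 to 157752591), a small protein of striated muscle, was a gene of the smooth muscle and fibroblast cells here. It had 0 and 20 UMIs in control mesothelial cells (0 and 1.68 CPM), against 11.7 and 39.5 CPM in control fibroblasts and 72.5 and 138.4 CPM in control smooth muscle cells. The difference between mesothelial cells and fibroblasts was -4.67 ± 0.35 on the log2 scale (edgeR adjusted p = 2.02e-09). Des (ENSMUSG00000026208, chromosome 1, 75360329 to 75368579), the desmin gene, stood at 22.6 and 23.5 CPM in control mesothelial cells, against 42.5 and 43.8 CPM in control fibroblasts. It was 0.87 ± 0.16 lower on the log2 scale (edgeR adjusted p = 0.000159), a call lost with DESeq2 (adjusted p = 0.0503). Actc1 (ENSMUSG00000068614, chromosome 2, 114047282 to 114053548), cardiac alpha-actin of the thin filament, had only 3 and 8 UMIs in control mesothelial cells, or 0.82 and 0.67 CPM, against 2.47 and 2.63 CPM in control fibroblasts. Its log2 difference of -1.79 ± 0.68 passed (edgeR adjusted p = 0.0338) but was lost under 5 of the other settings, with adjusted p between 0.0523 and 0.448. The other 3 members, Nppa, Tnnc1 and Myl4, did not pass the filter on low counts, and none exceeded 1.43 CPM in control mesothelial cells.

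**Figure D1:**
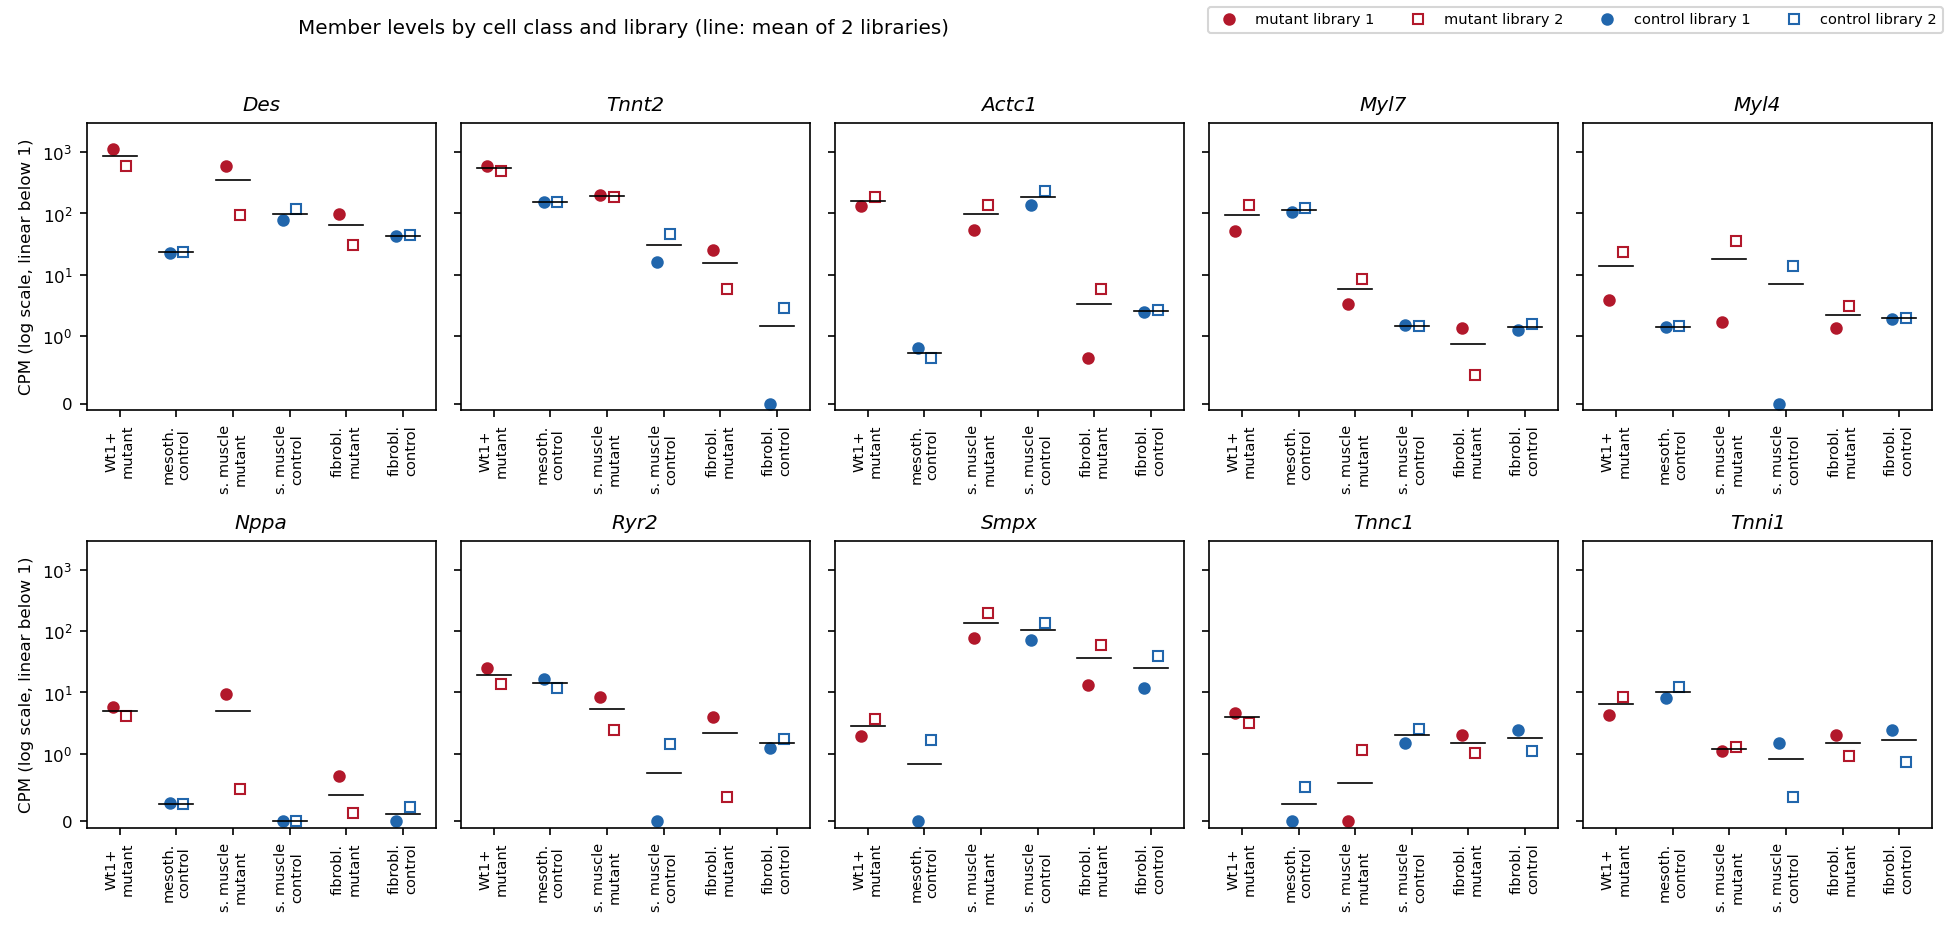
Levels of the 10 genes in CPM (vertical axis, log scale above 1 and linear below) in 6 classes of cells, with 1 point per library and a line at the mean of 2 libraries. Des stands at 1149 and 597.9 CPM in mutant Wt1-positive cells and at 22.6 and 23.5 CPM in control mesothelial cells, while the points of Myl7 overlap between these classes.

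The second question was which members were new or higher in mutant Wt1-positive cells. Of the cytoskeletal and thin filament members, Des and Actc1 showed the widest gaps. Des stood at 1149 and 597.9 CPM in mutant Wt1-positive cells, against 22.6 and 23.5 CPM in control mesothelial cells. Both mutant values lay far above both control values, by 50.8-fold between the libraries numbered 1 and 25.4-fold between those numbered 2. The fitted log2 difference was 5.27 ± 0.36 (SE, n = 2 libraries per group). Against control cells chosen by the same Wt1 gate, in which Des stood at 25.7 and 35.6 CPM, it was 4.87 ± 0.40, in a comparison that called 1.67% of 14392 genes higher and 3.34% lower (5.01% in all). Des was thus a gene at a low level in normal mesothelium and at a high level in these mutant cells. The annotated antisense gene Gm15179 overlaps Des, and the use of strand in counting is not given in the sources used here, so reads of the pair cannot be told apart.

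Actc1 was nearly absent in control mesothelial cells. It stood at 132.7 and 183.6 CPM (1531 and 3240 UMIs) in mutant Wt1-positive cells, against the 3 and 8 UMIs given above. Over both libraries the ratio was 231, with a 95% counting interval of 129 to 464. In Wt1-positive control cells it had 0 and 164 UMIs, of which 118 lay in a single cell. Actc1 was therefore new in mutants against mesothelium, but it was not new among the sorted cells. Control smooth muscle cells held 139.1 and 235.7 CPM, most of it in a few cells. In control library 1, 93 of 94 UMIs lay in a single cell, and in control library 2, 96.7% lay in 7 of 130 cells. The antisense gene A530058N18Rik overlaps Actc1.

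Tnnt2, already on in control mesothelium, was higher again in mutant cells. It stood at 597.4 and 499.4 CPM in mutant Wt1-positive cells, against 154.7 and 156.0 CPM in control mesothelial cells, 3.86-fold and 3.20-fold higher by library number. The groups did not overlap, and the fitted log2 difference was 1.88 ± 0.22. It was 2.25 ± 0.26 against Wt1-positive control cells, which held 140.7 and 103.0 CPM. The size depended on the gate for normal mesothelium: with Upk3b of at least 20 per 10000 the log2 difference was 1.20.

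The calcium-binding and inhibitory troponins and the natriuretic peptide had few UMIs. Tnnc1 (ENSMUSG00000091898, chromosome 14, 31208312 to 31211729), troponin C of slow and cardiac muscle, had 54 and 55 UMIs (4.68 and 3.12 CPM) in mutant Wt1-positive cells, against 0 and 6 UMIs (0 and 0.50 CPM) in control mesothelial cells. It was at least 5.73-fold higher in the libraries numbered 1, set against a floor of 3 counts in the control library, and 6.18-fold higher in those numbered 2. Nppa (ENSMUSG00000041616, chromosome 4, 148000722 to 148002079), the atrial natriuretic peptide gene, had 66 and 72 UMIs in mutant Wt1-positive cells, against 1 and 3 UMIs in control mesothelial cells. Both genes were separate between groups, at the low levels of 4.08 to 5.72 CPM for Nppa in mutants. The Nppa ratio over both libraries was 18.4, with a 95% counting interval of 7.03 to 68.5, and only 8.43 and 3.14% of mutant cells had a Nppa transcript. Both genes have an overlapping gene on the opposite strand, Nisch for Tnnc1 and Gm13054 for Nppa. Tnni1 was not higher in mutants, with 4.33 and 8.56 CPM in mutant Wt1-positive cells and 8.17 and 12.2 CPM in control mesothelial cells, and these ranges overlap.

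The myosin light chains and the calcium channel differed between mutant libraries. Myl7 stood at 50.8 and 135.0 CPM in mutant Wt1-positive cells, against 104.6 and 124.7 CPM in control mesothelial cells. The mutant values lay on both sides of the controls, with a ratio of 0.486 between the libraries numbered 1 and 1.08 between those numbered 2, and the fitted log2 difference was -0.20 ± 0.47. Its direction turned with the library left out, at 0.38 without mutant replicate 1 and -1.21 without mutant replicate 2. Myl4 (ENSMUSG00000061086, chromosome 11, 104550663 to 104595753), the atrial essential light chain, stood at 3.90 and 23.2 CPM in mutant Wt1-positive cells, against 1.36 and 1.43 CPM in control mesothelial cells. Both mutant values were higher, but the size rested on mutant library 2, since the log2 difference of 3.40 ± 0.95 was 1.43 without it. Ryr2 stood at 25.2 and 13.9 CPM in mutant Wt1-positive cells, against 16.62 and 12.02 CPM in control mesothelial cells, and the ranges overlap (log2 difference 0.52 ± 0.29). Several annotated genes overlap Myl4, and Gm26956 overlaps Ryr2. Smpx stood at 1.91 and 3.74 CPM in mutant Wt1-positive cells, against 0 and 1.68 CPM in control mesothelial cells and 9.83 and 8.72 CPM in Wt1-positive control cells, so its direction depended on the control cells chosen.

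All 10 members passed the filter on low counts in this comparison, in which 6.05% of 13910 genes were called higher and 7.98% lower, and the median log2 difference of all genes was 0.01. The members were chosen on it, so nothing is read from their place in it. By level, the members sorted into those already on in normal mesothelium and not separate in mutants (Myl7, Ryr2, Tnni1), on and higher (Tnnt2, and Des from a low level), and at 3 or fewer UMIs in at least 1 control library and higher in mutants (Actc1, Nppa, Tnnc1). Myl4 was low in normal mesothelium and higher in mutants, and Smpx, whose direction depended on the control cells, is put in none of these groups.

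Within the mutant Wt1-positive class, the transcripts were spread unevenly over cells. The median cell held 4.83 and 2.26 Des UMIs per 10000 in mutant libraries 1 and 2, against 0 and 0 in control mesothelial cells, and the highest cells held 87.6 and 59.4. For Tnnt2 the medians were 3.22 and 2.61 per 10000 in mutants, against 0.475 and 0.66 in control mesothelial cells. At 5000 UMIs per cell, Des was detected in 70.5 and 61.4% of mutant Wt1-positive cells, against 9.8 and 10.5% of control mesothelial cells. Tnnt2 was detected in 67.6 and 60.5% of mutant cells, against 34.3 and 38.3% of control mesothelial cells. Taken alone, Des and Tnnt2 were thus each detected in most mutant cells of the class. Both were detected together in 90 of 176 and 305 of 668 cells. Actc1 was detected in fewer cells, 9.66 and 17.7% of mutant Wt1-positive cells against 0 and 0.748% of control mesothelial cells. The 5% of mutant Wt1-positive cells with the most Actc1 held 78.2 and 69% of its UMIs, while for Des that share was 31.4 and 33.6%. In the 7 and 18 endothelial cells of the mutant libraries that reached this depth, Des was detected in 0 and 33.3% and Tnnt2 in 14.3 and 11.1%, with unthinned medians of 37134 and 6030 UMIs. These endothelial values show that some transcripts of both genes were counted in mutant cells of another type.

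**Figure D2:**
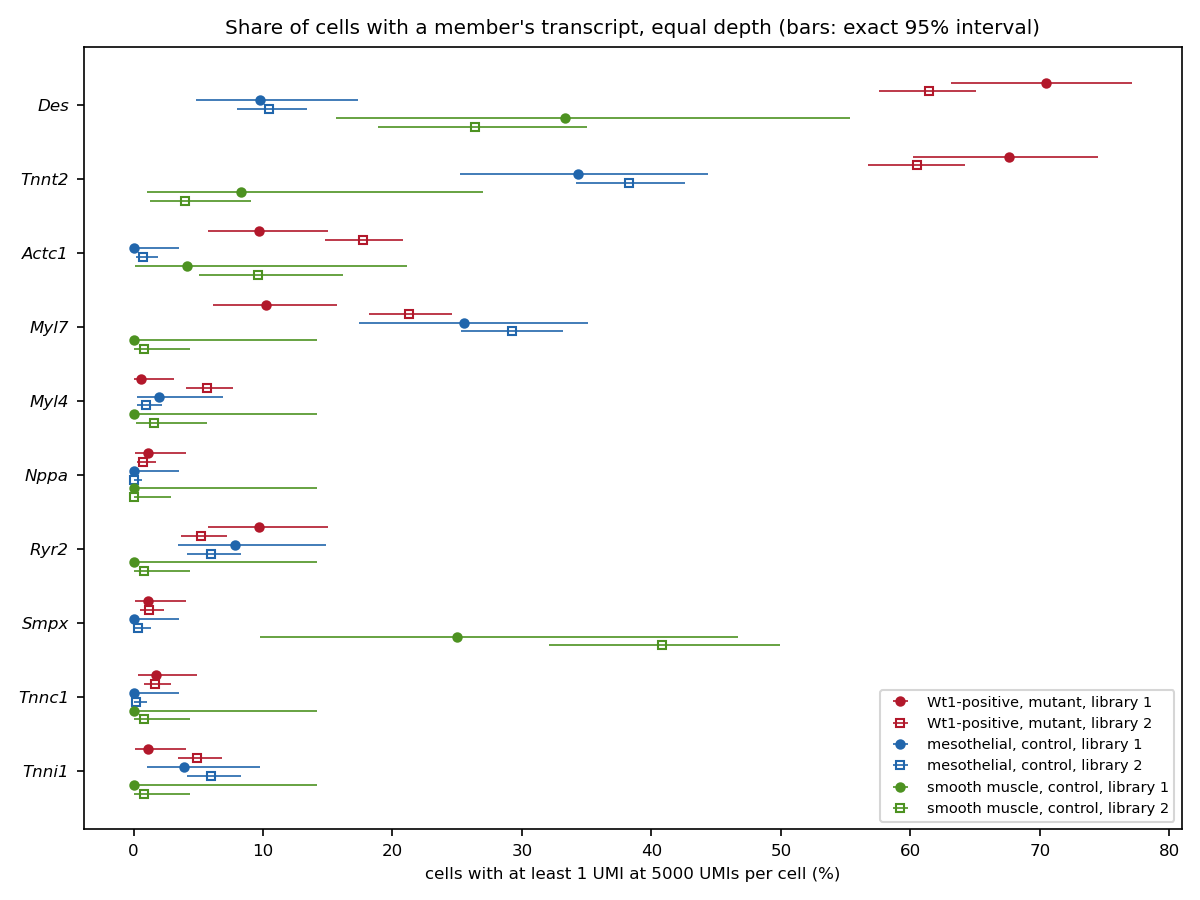
Share of cells with at least 1 UMI of each gene after thinning every cell to 5000 UMIs (horizontal axis, percent), for mutant Wt1-positive, control mesothelial and control smooth muscle cells of each library, with exact 95% binomial intervals that cover counting error only. Des and Tnnt2 exceed 60% in both mutant libraries, while Smpx is highest in control smooth muscle cells.

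The members met in the same cells more often in mutants. At 5000 UMIs per cell, the median cell held transcripts of 2 and 2 members in mutant Wt1-positive cells, against 1 and 1 in control mesothelial cells. At least 3 members were seen in 15.9 and 30.4% of mutant cells, against 1.96 and 4.3% of control mesothelial cells. Des was detected in 75.6 and 75.5% of mutant Wt1-positive cells with a Tnnt2 transcript and in 59.6 and 39.8% of those without. In control mesothelial cells Des was detected in 5.71 and 13.7% of cells with a Tnnt2 transcript and in 11.9 and 8.48% of those without. Tnnt2 and Myl7 met in both classes. In control mesothelial cells Tnnt2 was detected in 42.3 and 50.6% of cells with Myl7 and in 31.6 and 33.2% of those without. In mutant Wt1-positive cells these shares were 77.8 and 84.5% with Myl7 and 66.5 and 54% without. These shares come from cells of single libraries and are a description. Shares of cells with more than 1 member rise with the detection of each member alone, and no share expected from that was computed.

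**Figure D3:**
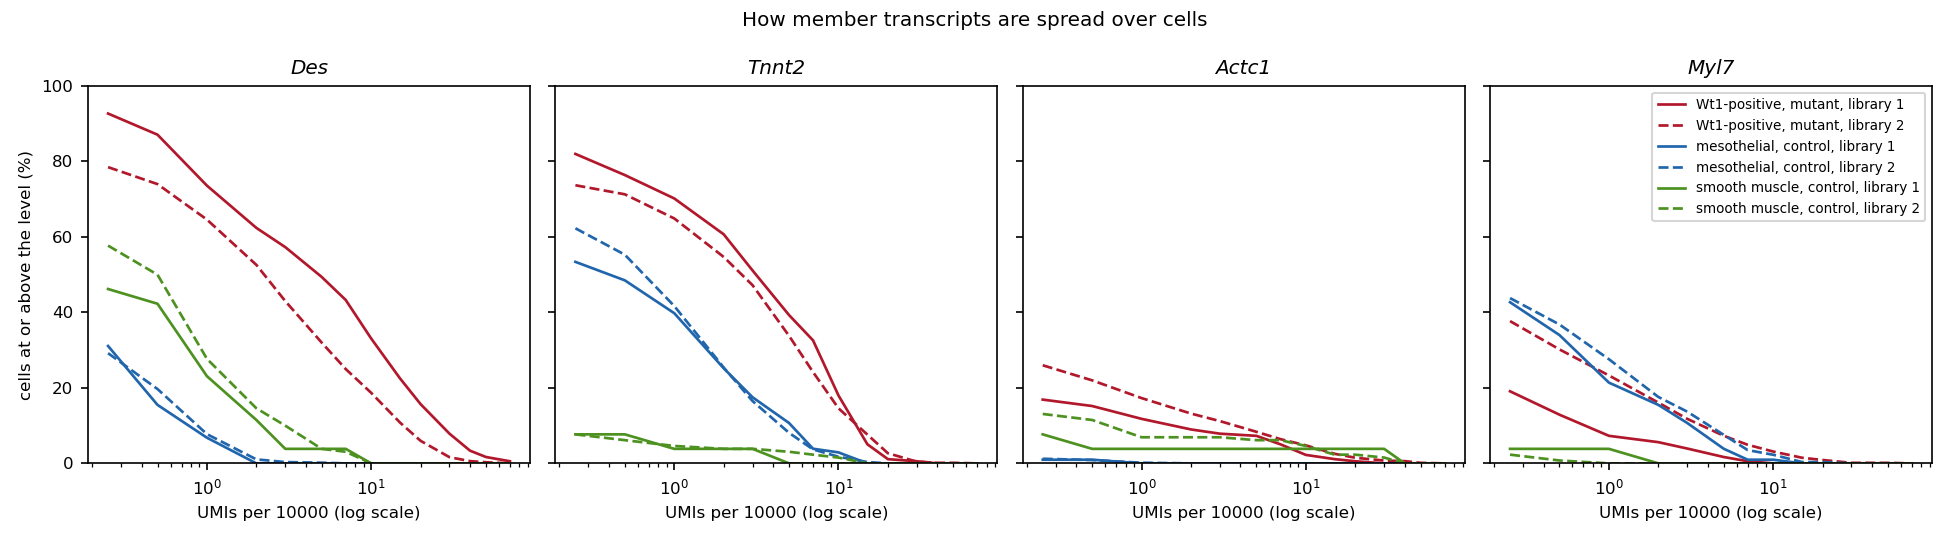
Share of cells at or above a level of Des, Tnnt2, Actc1 and Myl7 (vertical axis, percent) against that level in UMIs per 10000 of the cell (horizontal log axis), for 3 classes of cells and each library. The Des curves of mutant Wt1-positive cells reach 33.1 and 18.7% at 10 UMIs per 10000, where those of control mesothelial cells are at 0, while the Myl7 curve of mutant library 1 lies below both control mesothelial curves.

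Myh11, the smooth muscle myosin heavy chain, moved with part of this pattern. It stood at 495.1 and 167.4 CPM in mutant Wt1-positive cells, against 18.0 and 12.1 CPM in control mesothelial cells, and 44.9 and 19.3% of mutant Wt1-positive cells held at least 2 UMIs per 10000 of it. A split by Myh11 was added after seeing the data. In the 42 and 351 mutant Wt1-positive cells with no Myh11 UMI, Des stood at 1046 and 513.8 CPM, against 26.3 and 29.3 CPM in the 91 and 727 control cells of the same gate. Tnnt2 stood at 194.9 and 332.2 CPM in these mutant cells, against 158.3 and 118.9 CPM in these control cells, and Actc1 at 10.9 and 27.8 CPM against 0 and 0.71 CPM. Without Myh11-bearing cells, Des kept a log2 difference of 5.11 to control mesothelial cells, while that of Tnnt2 was 0.87 and that of Actc1 4.92. Myl7 stood at 43.0 and 122.7 CPM in these mutant cells, against 80.4 and 90.4 CPM in the control cells.

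Smooth muscle cells were then compared between genotypes. The class holds cells without UMIs of Wt1, but it need not be separate from the Wt1-positive cells. Of mutant Wt1-positive cells, 44.9 and 19.3% reached the Myh11 level of the smooth muscle gate. A cell of that kind whose Wt1, Rspo1 and Fgf9 transcripts were missed could fall into the smooth muscle class. The share of such cells was not tested, so the differences below are no independent check of the members. Tnnt2 gave a wide gap that did not pass the test. It stood at 198.9 and 187.6 CPM in mutant smooth muscle cells, against 16.3 and 45.8 CPM in control smooth muscle cells. The groups did not overlap, and the log2 difference was 2.57 ± 0.41 (edgeR quasi-likelihood, adjusted p = 0.118). The call turned with the fit. DESeq2 called it (adjusted p = 1.13e-05), as did edgeR with no low-count filter (adjusted p = 9.77e-10) and with Wt1 alone required at 0 UMIs (adjusted p = 0.0471). With a library left out, edgeR's adjusted p was 7.35e-15 without mutant replicate 1, 4.08e-13 without mutant replicate 2, 0.249 without control replicate 1 and 0.0185 without control replicate 2. With the replicate number as a block it was 2.63e-18. In control library 2, 97.7% of the smooth muscle UMIs of Tnnt2 lay in 7 of 130 cells. The sum of 14 mesothelial markers was 277 and 92.7 CPM in mutant smooth muscle cells and 167 and 105 CPM in control smooth muscle cells, ranges that overlap.

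Apart from Actc1, the other tested members overlapped between genotypes in smooth muscle. Des stood at 606.7 and 96.1 CPM in mutant smooth muscle cells, against 77.0 and 118.7 CPM in control smooth muscle cells, and 3 cells held 82.1% of its UMIs in mutant library 1. The Des UMIs of the other cells made up 108.6 CPM, still counted over all UMIs of the class. The log2 difference of Des was 1.78 ± 0.61 (edgeR adjusted p = 0.999), 0.13 without mutant replicate 1 and 2.52 without mutant replicate 2, where it passed (adjusted p = 1.25e-14). Blocking on the replicate number gave Des an adjusted p of 0.000677, and fitting all genes unfiltered gave 0.000282. Of the Actc1 UMIs in control smooth muscle cells, 93 of 94 in library 1 and 406 of 659 in library 2 lay in a single cell. By CPM, Actc1 was lower in both mutant libraries, with 54.6 and 138.0 CPM against 139.1 and 235.7 CPM in control smooth muscle cells. Its log2 difference was -0.83 ± 0.47 (edgeR adjusted p = 0.999). It passed without mutant replicate 2 (log2 difference -1.88, adjusted p = 6.7e-06), and its sign turned to 0.37 where Wt1 alone was required at 0 UMIs. Smpx stood at 77.4 and 201.5 CPM in mutants, against 72.5 and 138.4 CPM in controls, and Myl4 at 1.67 and 34.9 CPM in mutants, against 0 and 13.9 CPM in controls. With mutant replicate 1 left out, Smpx and Myl4 passed (edgeR adjusted p = 0.0161 and 0.000108). With mutant replicate 2 left out, their log2 differences were -0.57 and -2.45, and neither passed. Of the 10 members 5 passed the filter on low counts. Of these, 0 were called by edgeR, in a comparison where 0.0184% of all genes tested were called. An unadjusted p under 0.05 was seen for 2 of the 5, against 366 of all 10872 genes tested. With DESeq2, 1 of the 5 was called, Tnnt2, against 14 of all 10872 genes.

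In fibroblasts, no member passed the test between genotypes. Tnnt2 stood at 25.2 and 5.87 CPM in mutant fibroblasts, against 0 and 2.85 CPM in control fibroblasts, and Des at 98.3 and 30.1 CPM in mutants, against 42.5 and 43.8 CPM in controls. The Des ranges overlap and those of Tnnt2 do not. Smpx stood at 13.3 and 59.2 CPM in mutant fibroblasts, against 11.7 and 39.5 CPM in control fibroblasts. The other 7 members did not pass the filter on low counts. By edgeR's quasi-likelihood test 0 of the 3 that passed were called (adjusted p = 0.999 for each), and 1, Tnnt2, had an unadjusted p under 0.05. The comparison called 0% of 11014 genes, with 244 at an unadjusted p under 0.05, and DESeq2 called 3 genes, none of them a tested member. Tnnt2 passed without a filter on low counts (adjusted p = 0.000509), with the replicate number as a block (adjusted p = 0.000325) and without mutant replicate 2 (adjusted p = 6.94e-05), a fit that leaves 1 mutant library of 44 fibroblasts. Des passed in that same fit (log2 difference 1.10, adjusted p = 0.0077), and Smpx passed without mutant replicate 1 (log2 difference 1.27, adjusted p = 0.000107).

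Markers of heart and skeletal muscle cells were low in mutant Wt1-positive and control mesothelial cells. Of 12 cardiomyocyte markers, 9 and 10 were detected in mutant Wt1-positive cells, with a summed level of 18.7 and 13.8 CPM, against 4.90 and 3.95 CPM in control mesothelial cells, where 5 and 9 were detected. Nkx2-5, the cardiac homeobox gene, had 0 UMIs in mutant Wt1-positive and control mesothelial cells. Myh6, the alpha myosin heavy chain of heart, had 0 and 0 UMIs in mutant Wt1-positive cells and 0 and 1 UMIs in control mesothelial cells. Myh7, the slow and cardiac beta myosin, had 7 and 3 UMIs (0.61 and 0.17 CPM) in mutant Wt1-positive cells, against 3 and 13 UMIs (0.82 and 1.09 CPM) in control mesothelial cells, and both mutant values were the lower. A sum of 8 skeletal myocyte markers was 12.7 and 10.7 CPM in mutant Wt1-positive cells and 7.63 and 8.15 CPM in control mesothelial cells. Both heart myosin heavy chains were thus at or near 0 in the class with the highest Des and Tnnt2 levels. Other markers of the cardiomyocyte list went the other way. Csrp3 and Pln were called higher by edgeR in mutant Wt1-positive cells, against control mesothelial and against Wt1-positive control cells. The 3 cardiomyocyte markers that passed the filter on low counts had a median log2 difference of 3.36 to control mesothelial cells. In smooth muscle cells the cardiomyocyte sum was 10.0 and 18.6 CPM in mutants and 7.40 and 8.23 CPM in controls. The skeletal sum there was 6.13 and 8.41 CPM in mutants and 2.96 and 24.7 CPM in controls. Control library 2 held 46 UMIs of Ckm, a skeletal marker, in smooth muscle cells. The part of heart or skeletal muscle cells in the members' levels was not tested.

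Other muscle genes were read from lists, with tests by edgeR's quasi-likelihood test and Benjamini-Hochberg adjustment over the 13910 genes. The gates of mutant Wt1-positive and control mesothelial cells differ. Counts against Wt1-positive control cells, chosen by the same gate, are therefore given beside. These were adjusted over 14392 genes, of which 1.67% were called higher and 3.34% lower. Most smooth muscle contractile genes rose in mutant Wt1-positive cells relative to control mesothelial cells. Of 17 tested, 12 rose and 0 fell, with a median log2 difference of 1.98, against 6.05% and 7.98% of all genes. Cnn1, calponin, stood at 138.5 and 83.9 CPM in mutant Wt1-positive cells, against 0.82 and 0.76 CPM in control mesothelial cells (adjusted p = 0.000398). Acta2, smooth muscle actin, stood at 1966 and 1459 CPM against 10.3 and 33.1 CPM, Tagln, transgelin, at 3035 and 1896 CPM against 114 and 142 CPM, and Actg2, enteric actin, at 414 and 213 CPM against 0 and 2.35 CPM. All 4 rose and none of their values overlapped between groups. In cells with no Myh11 UMI, a split made after seeing the data, 4 of 16 smooth muscle genes rose and 1 fell. Myh11 is itself on this list, and the split sets it to 0 in the mutant cells while control mesothelial cells were not split. The change in these counts is therefore partly fixed by the split, and nothing is read from it. Against Wt1-positive control cells, 8 of 17 rose and 0 fell, and Actg2 was not called (edgeR adjusted p = 0.062). The summed level of 8 smooth muscle markers was 6633 and 4134 CPM in mutant Wt1-positive cells and 1663 and 1309 CPM in control mesothelial cells, and it reached 7313 and 9048 CPM in control smooth muscle cells.

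Of 55 other sarcomere genes only 27 passed the filter on low counts, of which 10 rose, 2 fell and 15 did not pass the test, with a median log2 difference of 0.16. Those that rose included Tpm2, a tropomyosin shared by slow and smooth muscle, at 739.8 and 573.2 CPM in mutant Wt1-positive cells, against 195.1 and 237.7 CPM in control mesothelial cells (adjusted p = 0.00678). Fast skeletal troponin I, Tnni2, stood at 9.27 and 10.6 CPM against 1.36 and 2.19 CPM (adjusted p = 0.00707), and skeletal actin, Acta1, at 3.38 and 2.89 CPM against 0.27 and 0.08 CPM (adjusted p = 0.00823). Smyd1, a methyltransferase that muscle cells need to assemble sarcomeres, fell to 0.09 and 0.57 CPM in mutant Wt1-positive cells, against 15.8 and 11.4 CPM in control mesothelial cells (adjusted p = 0.0031). Tpm2 lost its call without control replicate 1 (adjusted p = 0.118), without control replicate 2 (0.0759) and in cells with no Myh11 UMI (0.0602), and Acta1 lost it without control replicate 2 (0.0756). The list moved in both directions, and Smyd1 was on in normal mesothelium. Against Wt1-positive control cells, 5 of 30 tested rose and 1 fell, and Tpm2, Tnni2, Acta1 and Smyd1 were called there too. Xirp2, an actin-binding protein of muscle chosen after its values were seen, had 136 and 73 UMIs in mutant Wt1-positive cells against 0 and 0 UMIs in control mesothelial cells, at least 14.4-fold and 16.4-fold higher against a floor of 3 counts per library, and lost its call with Wt1 of at least 2 UMIs (adjusted p = 0.0525). Without control replicate 2 the list's count was 3 higher and 2 lower, and in cells with no Myh11 UMI it was 2 higher and 1 lower of 19.

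Calcium handling genes were split as well, with 5 higher and 2 lower of 18 tested and a median log2 difference of 0.68. Against Wt1-positive control cells, 2 of 18 tested rose and 1 fell. Jph2, junctophilin of heart and smooth muscle, stood at 14.3 and 7.65 CPM in mutant Wt1-positive cells, against 0 and 0.25 CPM in control mesothelial cells (adjusted p = 0.00258). The calcium-storage gene Casq1 rose to 1.99 and 1.59 CPM in mutants, against 0 and 0.08 CPM in control mesothelial cells (adjusted p = 0.0147). Cacna1h, a T-type calcium channel gene, fell to 7.28 and 7.03 CPM in mutants, against 19.62 and 25.04 CPM in control mesothelial cells (adjusted p = 0.00618). Kcnj2, a potassium channel gene, fell to 0.26 and 0.17 CPM, against 3.27 and 1.85 CPM (adjusted p = 0.0167). Neither Casq1 nor Kcnj2 was called against Wt1-positive control cells (edgeR adjusted p = 0.0557 and 0.0959). Casq1 lost its call without control replicate 2 (adjusted p = 0.099) and with Upk3b of at least 20 per 10000 (0.075), and Kcnj2 lost it without control replicate 1 (0.0964) and without control replicate 2 (0.0509). Without control replicate 2 the count was 2 higher and 1 lower, as it was in cells with no Myh11 UMI.

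Among cardiac and muscle transcription factors, 5 of 14 tested rose and 3 fell. Against Wt1-positive control cells, 2 of 14 rose and 0 fell. Myocd, myocardin, the partner of serum response factor in heart and smooth muscle, stood at 68.9 and 44.3 CPM in mutant Wt1-positive cells, against 5.72 and 5.97 CPM in control mesothelial cells (log2 difference 3.30 ± 0.25, adjusted p = 0.000797). It stood at 134.7 and 175.6 CPM in control smooth muscle cells. Mef2c, a factor of heart and muscle development, stood at 155.4 and 143.8 CPM in mutants against 65.9 and 66.2 CPM in control mesothelial cells (adjusted p = 0.00801), and the cardiac and lung factor Tbx5 at 72.9 and 63.3 CPM against 36.2 and 35.0 CPM (adjusted p = 0.0134). Gata5 fell to 61.7 and 41.7 CPM in mutants, against 123.7 and 101.5 CPM in control mesothelial cells (adjusted p = 0.0224). Against Wt1-positive control cells, neither Tbx5 nor Gata5 was called (edgeR adjusted p = 0.499 and 0.163), and Tbx5 stood at 52.7 and 63.8 CPM in those cells. Of Myocd, Mef2c, Tbx5 and Gata5, Myocd alone kept its call against control mesothelial cells in every setting tried. Without control replicate 1 and without control replicate 2 the adjusted p was 0.117 and 0.119 for Mef2c, 0.133 and 0.148 for Tbx5, and 0.149 and 0.086 for Gata5. In cells with no Myh11 UMI it was 0.0571 for Mef2c and 0.207 for Tbx5, and with Upk3b of at least 5 per 10000 it was 0.0544 for Gata5. Without control replicate 1 or without control replicate 2 the list's count was 1 higher and 0 lower, and in cells with no Myh11 UMI it was 1 and 1.

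Of 7 natriuretic and stretch genes, 6 were tested, 4 rose and 0 fell, with a median log2 difference of 1.56. Against Wt1-positive control cells, 3 of 6 rose and 0 fell, and Csrp2 was not called (edgeR adjusted p = 0.103). Csrp2, a LIM protein of smooth muscle, stood at 417.0 and 457.1 CPM in mutant Wt1-positive cells, against 71.1 and 93.1 CPM in control mesothelial cells (adjusted p = 0.00214). Csrp1, its close relative, stood at 325 and 255 CPM against 103 and 107 CPM (adjusted p = 0.00533), and the LIM protein gene Fhl2 at 39.5 and 42.8 CPM against 10.9 and 16.7 CPM (adjusted p = 0.00996). Csrp1 lost its call without control replicate 1 (adjusted p = 0.0828) and without control replicate 2 (0.0831). Ankrd1, the cardiac ankyrin repeat protein, stood at 66.0 and 8.50 CPM in mutants, against 0 and 0 CPM in control mesothelial cells (adjusted p = 0.0226). It was at least 80.8-fold and 33.7-fold higher against a floor of 3 counts per library, and it differed widely between the mutant libraries. In cells with no Myh11 UMI, 4 of 5 genes of the list rose and 0 fell. None of 11 skeletal muscle genes passed the filter on low counts. Cav3, Mymk and Ckm stayed at or under 0.17 CPM in mutant Wt1-positive cells.

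**Figure D4:**
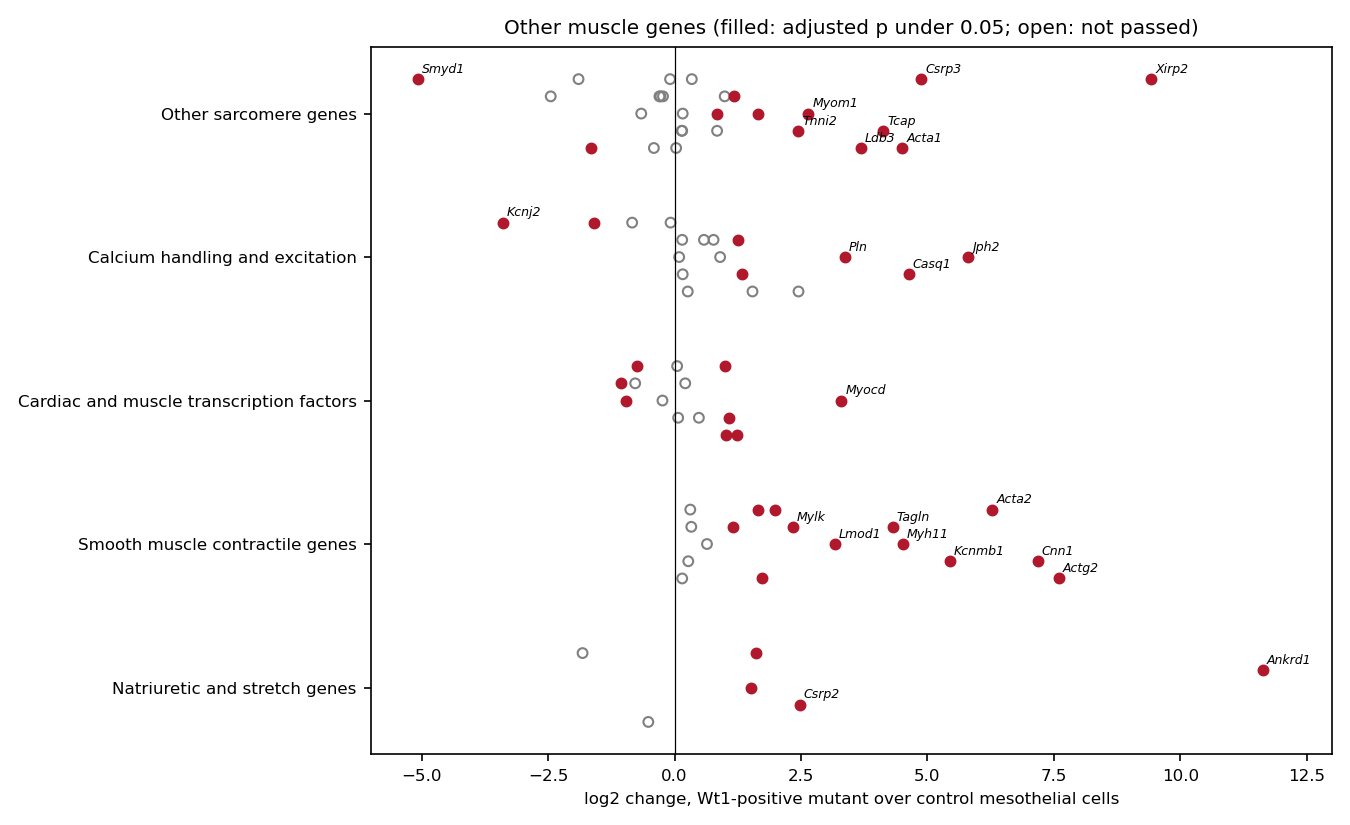
Log2 difference of mutant Wt1-positive over control mesothelial cells (horizontal axis) for the tested genes of 5 muscle lists, each gene 1 point, filled where the edgeR adjusted p was under 0.05. Of the smooth muscle contractile genes 12 of 17 are filled on the right, and the positions of Ankrd1 and Xirp2, with 0 UMIs in control mesothelial cells, depend on the fit's prior count.

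The genes whose levels followed the members' mean most closely were sought among 8498 genes, over 8 points, the mutant Wt1-positive, control mesothelial, control smooth muscle and control fibroblast sums of each library. Pearson's r was 0.98 for Shisa4 and Eno3, 0.97 for Cd63, 0.96 for Lgals1 and Cd24a, 0.94 for Tnfrsf12a and 0.93 for Tuba1a and Gm26532. Points of a library share its cells and its depth, and the 8 values are a description. Eno3, the muscle enolase, stood at 66.0 and 60.1 CPM in mutant Wt1-positive cells, against 10.6 and 10.5 CPM in control mesothelial cells. Tnfrsf12a, a receptor of the TNF family, stood at 72.7 and 66.6 CPM in mutants, against 9.54 and 11.4 CPM in control mesothelial cells, and neither gene overlapped between these classes.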

How the data were processed

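The authors deposited, per library, a matrix of UMI counts for each gene in each barcode. The values are whole numbers and not normalized, and come from Cell Ranger 6.0.2 on mm10, per the submitters' processing notes. The annotation release, the calling of barcodes and the use of strand are not given in the sources used here. Locations come from GENCODE vM21, which 32235 of 32285 gene IDs matched.

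Barcodes with at least 1000 genes and at most 15% mitochondrial UMIs were kept. Scrublet (scanpy 1.11.5) marked 2 and 0 barcodes in mutant libraries and 3 and 2 in controls by its own threshold, so the barcodes of highest score were removed instead, at 0.8% per 1000 barcodes. Libraries kept 8175944 to 80666128 UMIs. Kept barcodes also found in another library numbered 0 to 5 per library. Sums of counts per library and class went into edgeR 4.0.16 under R 4.3.3: filterByExpr, TMM and a two-sided quasi-likelihood test, called at an adjusted p (Benjamini-Hochberg over all genes tested) under 0.05. There were 2 libraries per group and no covariate, except a library block within controls. These steps recovered known changes in simulated counts, placed in well-counted genes only. The simulated libraries had no replicate effect, so power in these data is not read from them. Replicate libraries differed beyond sampling noise, with chi-square over its degrees of freedom of 7.7 to 74.9.

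The members, lists and gates were chosen with earlier results of these data known. Beside the members, the text names up to 4 genes per list of smallest p or, with none called, highest level, and the 8 non-members most like the members' mean. A skeletal muscle gene that this rule names is not reported here. Intervals and floors (3 counts) cover counting error only. Alternatives were other normalization, no low-count filter, DESeq2 1.42.0, a replicate block, other gates, all barcodes, doublets kept and each library left out.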

Additional observations from a re-analysis of the deposited data

Results flagged for a closer look

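By CPM, Actc1 differed in opposite directions between classes. In Wt1-positive cells it stood at 133 and 184 CPM in mutants and at 0 and 7.57 CPM in controls, while in smooth muscle cells it stood at 54.6 and 138 CPM in mutants and at 139 and 236 CPM in controls. Tnnc1 did the same at few UMIs, with 4.68 and 3.12 CPM in mutant and 0 and 0.923 CPM in control Wt1-positive cells, and 0 and 1.13 CPM in mutant and 1.48 and 2.50 CPM in control smooth muscle cells. For neither gene was the difference between classes tested. The Actc1 levels of control smooth muscle rested on few cells, with 93 of 94 UMIs in library 1 and 406 of 659 in library 2 in a single cell. At 5000 UMIs per cell, Actc1 was detected in 7.84 and 14.7% of mutant and 4.17 and 9.6% of control smooth muscle cells.

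Several members also gave a signal in mutant cells outside the comparisons, above both control libraries of the same class. Des stood at 41.2 and 37.5 CPM in endothelial cells of mutant libraries 1 and 2 and at 252 CPM in epithelial cells of mutant library 1, where 424 of 444 UMIs lay in a single cell. Tnnt2 stood at 104 CPM in endothelial cells of mutant library 1, and Tnni1 at 57.7 CPM there, with 20 of its 21 UMIs in a single cell. Myl7 stood at 547 CPM in the 1 mesothelial cell of mutant library 1 and at 1017 CPM in the 6 mesothelial cells of mutant library 2, against 104.6 and 124.7 CPM in control mesothelial cells. The source of these transcripts was not tested.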

How the results depend on the processing

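Counts of called genes depended on the fit. Wt1-positive mutant against control mesothelial cells gave 1952 calls, against 3238 without a filter on low counts, 4821 with the replicate block, 1032 to 4326 with a library left out and 1145 in cells with no Myh11 UMI. Against Wt1-positive control cells the 721 calls became 2051, 1180 with DESeq2, 2858 with the replicate block, 710 to 1241 with a library left out, 375 with Sftpc not limited and 389 in cells with no Myh11 UMI. In smooth muscle the 2 calls became 98 without the filter, 14 with DESeq2, 189 with the block, 17 to 257 with a library left out, 0 with Myh11 of at least 5 per 10000 and 11 with Wt1 alone at 0 UMIs. In fibroblasts the 0 calls became 57, 3 with DESeq2, 90 with the block and 5 to 311 with a library left out. Control mesothelial cells against fibroblasts gave 6647 calls and 3332 with DESeq2, and no library could be left out of that paired fit. The cause of these shifts was not tested. Same-numbered libraries correlated in their deviations at 0.31 to 0.41, but with 2 pairs the numbers count only as names. Under the block Des, Tnnt2, Actc1 and Myl4 passed in smooth muscle and Tnnt2 in fibroblasts. Smpx reversed to -0.01 with Upk3b of at least 5 per 10000. Of 21 other genes named, 12 kept their call in every setting and 9 lost it in at least 1, with 0 reversed. A lone library left in a group is assumed to vary as those of the other group do. At this depth Nppa, Tnnc1, Myl4 and Tnni1 rest on few UMIs per library.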
